A study of Mus musculus with 12 samples.

Results

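Described here in mouse liver are 10 genes of iron handling and metal binding: Hamp, Hamp2, Slc40a1, Tfrc, Tfr2, Fth1, Ftl1, Trf, Mt1 and Mt2. They were taken by name from the deposited table of transcripts, and the values of all transcripts that carry a gene's symbol were summed in each liver. The 10 genes are among 24296 symbols in the table and account for 46 of its 169430 transcripts. All 10 were found, all 10 were above 0 in every liver, and all 10 had a mean level of at least 0.5, the minimum for testing.

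The study asked whether phloridzin, a glucoside extracted from lychee core, acts on liver fibrosis, with silibinin as a reference drug. All animals were male C57/BL6N mice, whose age is not given. In the model group, carbon tetrachloride in olive oil (1:9 by volume, 5 mL per kg) was injected into the abdomen 2 times a week for 8 weeks. The silibinin group and the phloridzin group received the same injections plus the drug from week 5, phloridzin at 40 mg per kg, the high dose. The control group was not given the model treatment, and what vehicle it received is not stated. RNA of 12 livers was sequenced, 3 per group, and the labels give each library as a numbered sample of its group without saying that each came from a separate mouse. The replicate numbers used below are names only.

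Levels are given as FPKM, a unit that the labels do not name and that was inferred from how the deposited values are spaced. FPKM divides the fragments of a transcript by its length and by library size. From the spacing of the values, the libraries held 105, 108 and 109.6 M fragments in control livers 1 to 3, 83.7, 101 and 100.1 M in the model livers, 107, 111 and 110.1 M in the silibinin livers, and 102, 105 and 98.5 M in the phloridzin livers. In each library, between 98.6% and 98.7% of the values worth up to 50 fragments were whole numbers of fragments within 0.05. The fragments behind a member ranged from 158 for Hamp2 to 1731024 for Trf in a single liver.

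Some libraries stood apart. Phloridzin 1 had the lowest mean correlation with its own group over all tested genes, 0.920, against 0.934 to 0.952 for the other 11 livers. Ttr, a plasma carrier protein made by hepatocytes, was at 10.3 FPKM in phloridzin 1 and at 39.8 in control 1, against 706 to 2530.1 in the other livers. Serpina1a, another hepatocyte gene, was low in different livers, at 61.8 FPKM in model 1 and 65.6 in silibinin 1. It stood at 1269 in phloridzin 1 and at 950 in control 1. Transcripts assembled by the authors that carry no gene symbol held 25.5% to 29.8% of all FPKM in the control livers and 19.4% to 21.3% in the other livers. Fragments of the 10 genes that were counted in such transcripts cannot be located.

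The liver senses body iron and answers with hepcidin, a peptide hormone that binds the iron exporter ferroportin and causes its breakdown, so that less iron enters the blood from gut cells, macrophages and hepatocytes. Hepcidin transcription is driven mainly by bone morphogenetic protein signals through SMAD proteins and by interleukin 6 through STAT3. Inside cells, iron regulatory proteins bind hairpins in the RNAs of ferritin, ferroportin and the transferrin receptor, ferritin stores iron, and metallothioneins bind zinc, copper and cadmium and are induced by metals, glucocorticoids and inflammation.

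The comparison of model with control asks what the injury does, those of silibinin and phloridzin with model ask what a drug does during the injury, and the comparisons with control and between the drugs give the remaining distances. Log2 fold changes are differences of mean log2(FPKM + 1), tested with limma in a fit of all 12 livers, with Benjamini-Hochberg adjustment over 13158 genes. A gene is called DE, differentially expressed, when its adjusted p is under 0.05 and its log2 fold change is beyond 1 in size. The p-values measure spread between livers.

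Hamp, Hamp2 and Tfrc were higher in the model livers than in the control livers and are the 3 members of 10 called DE, where 10.5% of all genes tested were. At an unadjusted p under 0.05 there were 4, with Trf, where 45.8% of all genes were. In silibinin against model, 1 member was DE, Hamp, which fell, where 4.0% of all genes were DE. In phloridzin against model, limma called 0 members where 3.52% of all genes were DE, while 3 had an unadjusted p under 0.05 (Hamp, Tfrc and Trf), where 27.8% of all genes had, and voom called 1, Hamp, where it called 6.16% of all genes. Against control, Hamp2 was DE in silibinin, where 1.98% of all genes were, and in phloridzin, where 3.02% were. Voom lost the latter call, with an adjusted p of 0.0902, and called 5.48% of all genes there. Between the drugs limma called 0 members, with 0 at an unadjusted p under 0.05, where 3.75% of all genes were, and 0 by voom, and 0.0228% of all genes were DE by limma and by voom.

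The median of all genes tested was itself shifted in the model livers, with a log2 fold change of 0.34 against control, and adjusted p was under 0.05 for 31.1% of genes with higher values and for 3.80% with lower values. That median is -0.01 with median-ratio size factors, where the members called in model against control were 2, Hamp2 and Trf, where 7.49% of all genes were DE. Relative to the median, Hamp2 was 2.04, Hamp 0.84 and Tfrc 0.73 higher in the model livers on the log2 scale, Fth1 stood at 0.13, Trf at -1.61 and Tfr2 at -1.47. In silibinin and phloridzin against model the medians were -0.15 and -0.11.

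**Figure D1:**
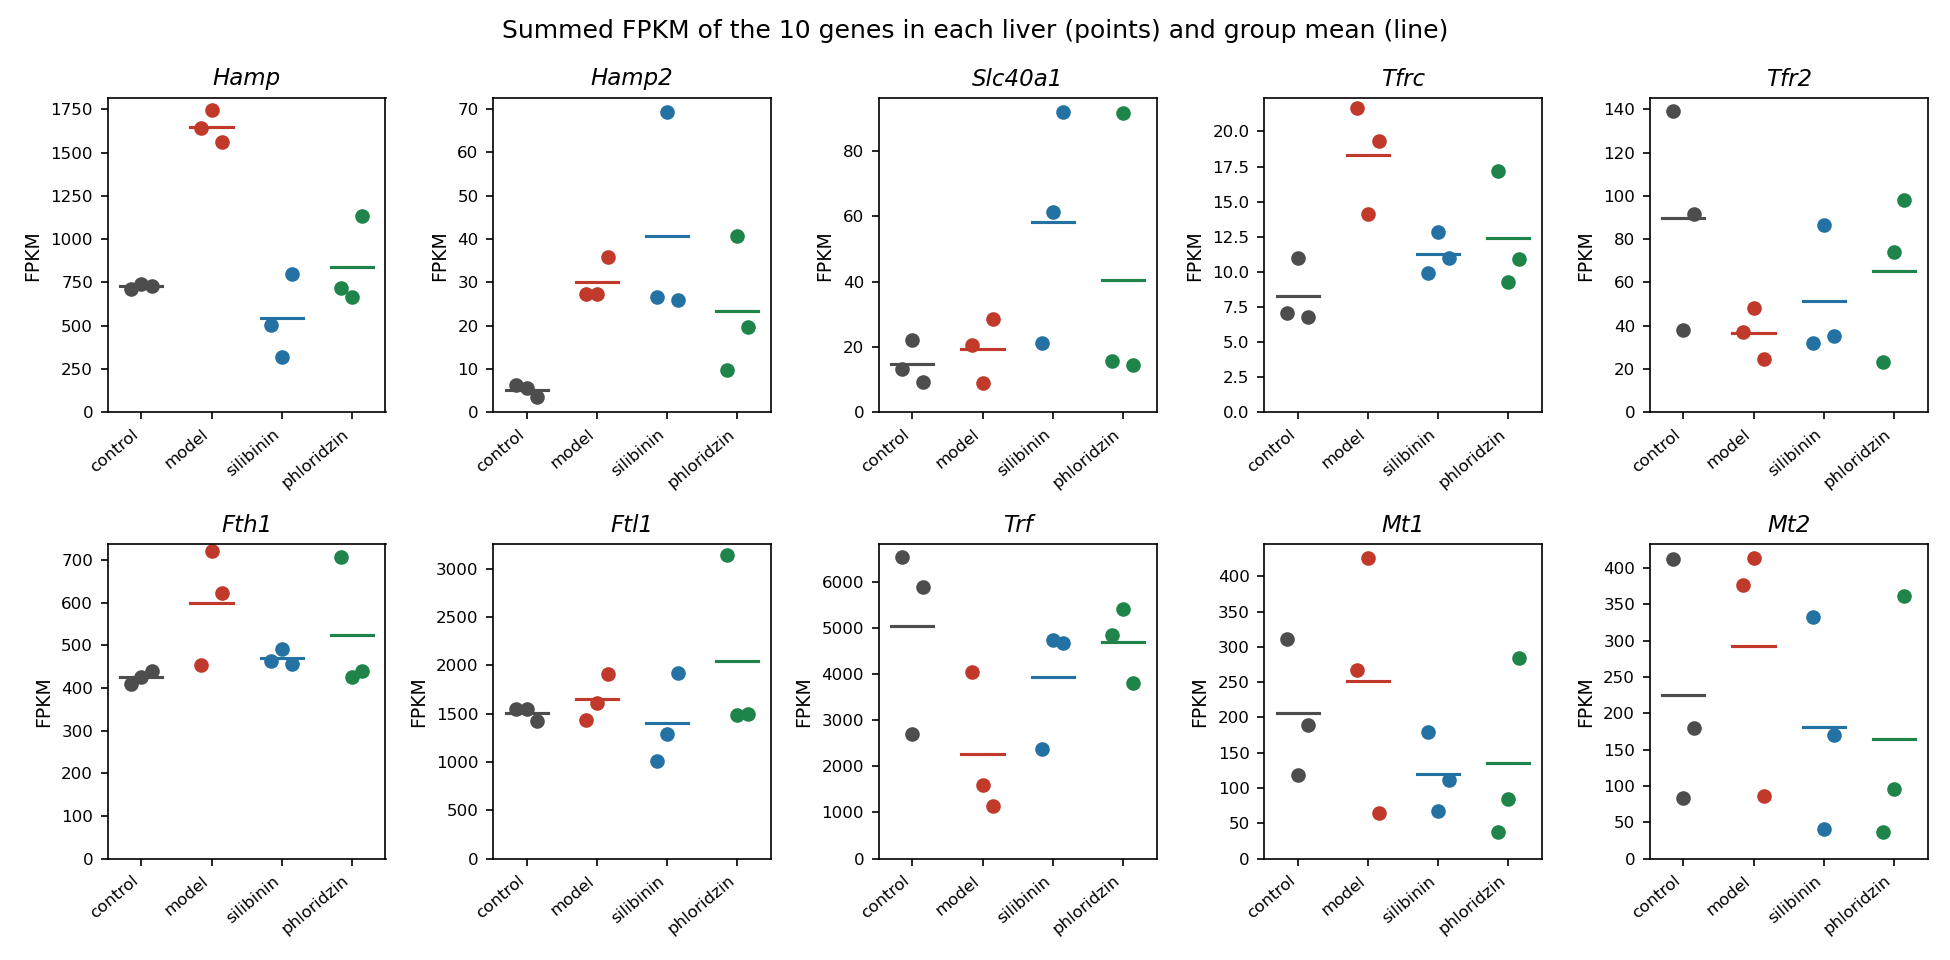
Summed FPKM of each of the 10 genes in each liver (points, 3 per group) with the group mean (line), on linear axes from 0 in FPKM. Hamp forms a tight band at 1562 to 1744 in the model livers, above all other livers, while Mt1 and Mt2 spread more than 4-fold within the model group.

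Hamp encodes hepcidin 1 (ENSMUSG00000050440, GRCm38, chr7:30942368-30944032, minus strand). Hamp2, its neighbour (ENSMUSG00000056978, chr7:30922372-30924681, minus strand), encodes a related peptide. Since both rose in the model livers and Hamp fell under silibinin, the 250 bases before each start are printed, 5′ to 3′, from RefSeq on GRCm38.p6. RefSeq's promoter table held 8 of the 10 genes, all but Slc40a1 and Trf. Capitals mark matches, on both strands, to GGCGCC, the core of a BMP response element, and to TTCNNNGAA, the letters of a STAT element.
Hamp, chr7:30944030-30944279, minus strand: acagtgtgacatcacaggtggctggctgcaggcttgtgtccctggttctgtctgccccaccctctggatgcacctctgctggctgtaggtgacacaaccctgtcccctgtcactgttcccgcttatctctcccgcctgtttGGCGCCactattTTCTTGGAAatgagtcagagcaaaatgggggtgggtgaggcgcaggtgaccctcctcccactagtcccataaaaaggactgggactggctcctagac
Hamp2, chr7:30924182-30924431, minus strand: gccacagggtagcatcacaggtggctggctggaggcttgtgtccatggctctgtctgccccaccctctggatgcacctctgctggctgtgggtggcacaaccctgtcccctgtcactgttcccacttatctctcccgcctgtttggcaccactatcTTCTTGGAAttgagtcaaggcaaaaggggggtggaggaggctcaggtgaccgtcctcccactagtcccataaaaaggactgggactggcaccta
GGCGCC starts 109 bases before the start of Hamp and has no match in the window of Hamp2. TTCTTGGAA starts 97 bases before the start of Hamp and 94 bases before that of Hamp2. In windows of 300 bases, 250 before and 50 after the start, 11.9% of 32851 promoters hold GGCGCC and 8.30% hold TTCNNNGAA. Among the other members with a promoter, GGCGCC also occurs before a start of Tfrc. A match describes letters and does not show a bound site.

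Hamp stood at 712, 743 and 729 FPKM in control livers 1 to 3, at 1642, 1744 and 1562 in the model livers, at 507, 321 and 801 in the silibinin livers and at 719, 664 and 1134 in the phloridzin livers. Every model liver was above every other liver, the control livers were nearly level, and the silibinin and phloridzin livers lay on both sides of them. The group means were 728 ± 15.6 FPKM in control, 1649 ± 91.1 in model, 543 ± 242 in silibinin and 839 ± 257 in phloridzin (SD, n = 3). In bulk liver, fewer cells of a type and less RNA per cell cannot be told apart.

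Hamp rose in the model livers, 2.26-fold, with a log2 fold change of 1.18 (95% confidence interval 0.49 to 1.86) and an adjusted p of 0.0145 by limma. This call was lost with median-ratio size factors, where the log2 fold change was 0.70 and the adjusted p 0.173, and over all 22 alternatives the adjusted p ran from 0.00382 to 0.173. Without control 1 it was 0.0411, with a log2 fold change of 1.16. Hamp fell in the silibinin livers against model, with a log2 fold change of -1.70 (interval -2.38 to -1.01) and an adjusted p of 0.00579, and it kept an adjusted p under 0.05 in all 22 alternatives, with -2.03 to -1.37. In phloridzin against model its log2 fold change was -1.01 (interval -1.70 to -0.33), lower in 3 of 3 livers, and the adjusted p of 0.0564 missed the threshold. That adjusted p was 0.0428 without phloridzin 3, with a log2 fold change of -1.25, 0.0308 without silibinin 2 and 0.0283 without silibinin 3, which enter through the pooled spread, and 0.104 without phloridzin 1. It was 0.0452 among genes with a mean of at least 5 FPKM and 0.0437 by voom, and over all alternatives it ran from 0.0283 to 0.180. The drugs themselves were compared directly, with a log2 fold change of 0.68 (SE 0.31) for phloridzin against silibinin and an adjusted p of 1. Against control, Hamp differed by -0.52 (interval -1.21 to 0.16) in silibinin and by 0.16 (interval -0.52 to 0.85) in phloridzin, with adjusted p of 0.369 and 0.797. The latter value was -0.13 with median-ratio size factors and -0.08 without phloridzin 3.

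Hepatocytes are the main source of hepcidin in liver. Of 10 hepatocyte markers, limma found an adjusted p under 0.05 for 0 in model against control, where 31.1% of all genes were higher and 3.80% lower. Under each drug against model it found 0, where 2.62% of all genes were higher and 11.4% lower under silibinin and 2.50% and 10.4% under phloridzin. At an unadjusted p under 0.05 there were 0 in model against control, where 45.8% of all genes were, 0 under silibinin and 1 under phloridzin, where 29.2% and 27.8% were, and voom gave 0 in each. The list's median log2 fold change in model against control was 0.03, and -0.44 with median-ratio size factors, where 0 passed as well. Their summed FPKM was 18974, 26164 and 20090.1 in control, 19173, 28413 and 30752 in model, 31328, 37920.2 and 22845 in silibinin and 25042, 34445 and 28471 in phloridzin. Alb was the most abundant and 0 of the 10 were at 0. Their part in the result for Hamp was not tested.

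Hamp2 was far less abundant than Hamp, at 6.26, 5.51 and 3.43 FPKM in control, 27.33, 27.18 and 35.86 in model, 26.7, 69.2 and 26.0 in silibinin and 9.69, 40.6 and 19.7 in phloridzin. The control livers were the lowest of all, the model and silibinin livers overlapped, and the phloridzin livers lay on both sides of the model livers. The means were 5.07 ± 1.47, 30.1 ± 4.97, 40.6 ± 24.8 and 23.3 ± 15.8 FPKM (SD, n = 3). Hamp2 rose in the model livers with a log2 fold change of 2.38 (interval 1.31 to 3.44) and an adjusted p of 0.00405 by limma, and it kept an adjusted p under 0.05 in all 22 alternatives, with log2 fold changes from 1.95 to 3.04.

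In silibinin against model the log2 fold change of Hamp2 was 0.28 (interval -0.79 to 1.34, adjusted p 0.752), with -1.01 for the most abundant transcript alone and -0.18 without silibinin 2. Under phloridzin, also against model, it was -0.56 (interval -1.62 to 0.50, adjusted p 0.494). Against control Hamp2 rose by 2.66 under silibinin (adjusted p 0.0145) and by 1.82 under phloridzin (adjusted p 0.0454) on the log2 scale. The call under silibinin was lost without control 3 (2.44, adjusted p 0.0549), without silibinin 2 (2.20, adjusted p 0.0615) and with the most abundant transcript alone (2.03, adjusted p 0.257). The call under phloridzin was lost without any single control liver, any single model liver, silibinin 1, phloridzin 2 or phloridzin 3. The adjusted p was then between 0.0573 and 0.136 and the log2 fold change between 1.32 and 1.96. Without phloridzin 1 it was 2.30 with an adjusted p of 0.0263. The call under phloridzin was also lost with no filter, a mean of at least 5 FPKM, coding transcripts, the most abundant transcript and median-ratio size factors. The 2 compared groups alone and voom lost it as well. In these settings the adjusted p was between 0.0538 and 0.131, and 6 of all 22 alternatives kept an adjusted p under 0.05.

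Hamp2 has 2 coding transcripts with at least 10% of a group's sum. ENSMUST00000217812 held most of it in 10 livers, up to 38.5 FPKM in phloridzin 2. In silibinin 2 the transcript ENSMUST00000074671 stood at 65.6 FPKM and ENSMUST00000217812 at 3.59, and in control 3 they stood at 3.26 and 0.167. Thus the highest Hamp2 value of all livers came from a transcript that was at or below 2.09 FPKM in the other 10 livers. Hamp has a single transcript in the table, ENSMUST00000062620.

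The ratio of Hamp2 to Hamp within a liver ran from 0.00470 in control 3 to 0.216 in silibinin 2. All 3 control livers had lower ratios than the other 9. The mean log2 ratio was higher by 1.43 in model than in control and by 1.98 in silibinin than in model, each without overlap between the groups, with an exact permutation p of 0.1, the smallest that 3 livers against 3 can give. Without silibinin 2 the second difference was 1.19. In phloridzin against model the difference was 0.42 with an exact p of 0.8, and -0.24 without phloridzin 2. The longest run of identical bases between the Hamp transcript and Hamp2 is 87, and 16.6% of its 50-base stretches occur in Hamp2, so how the authors' programs shared reads between the pair bears on these ratios and was not tested.

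**Figure D2:**
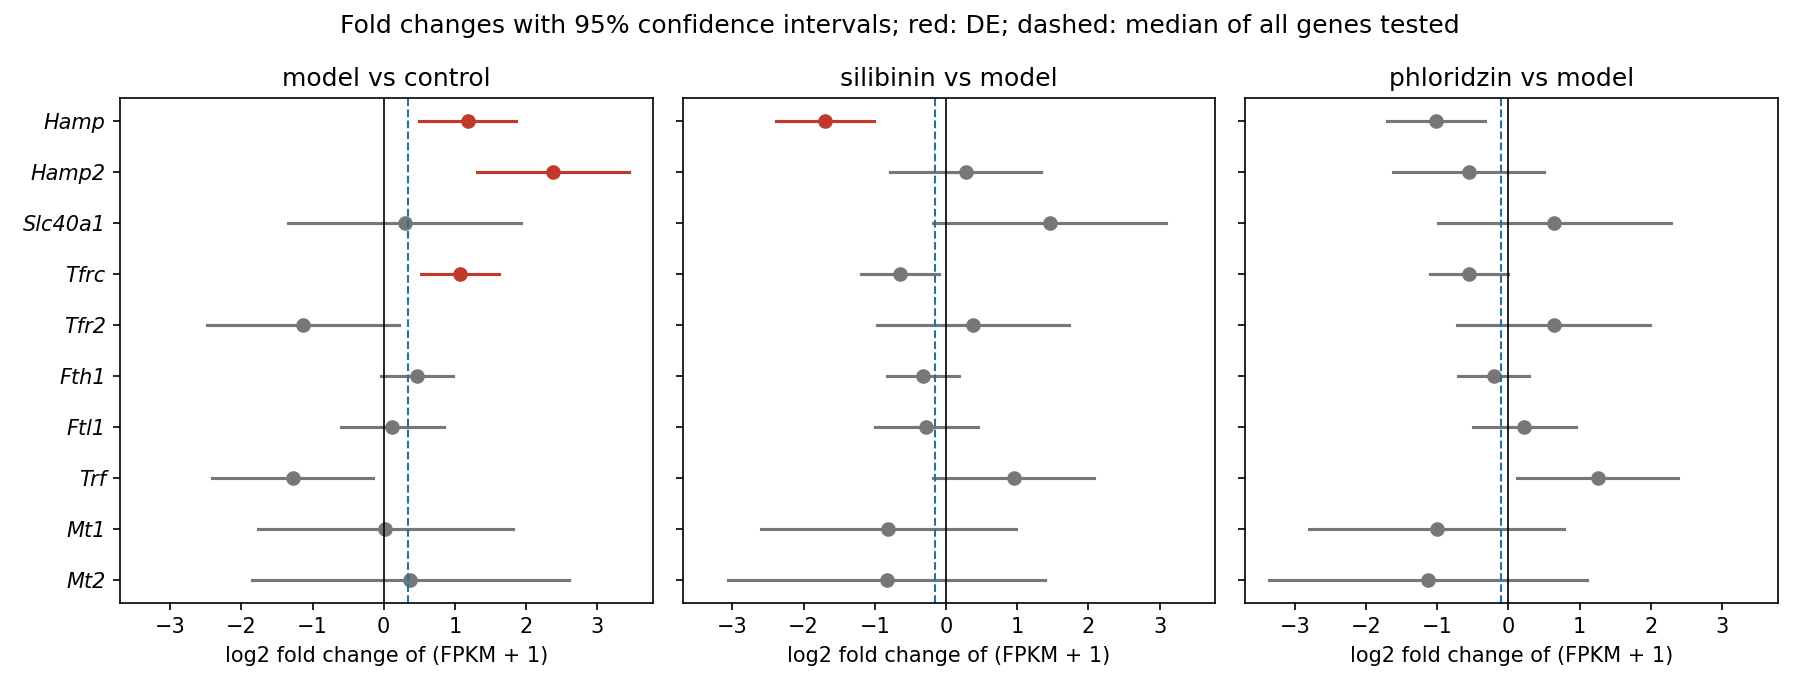
Log2 fold changes of the 10 genes (points) with 95% confidence intervals (bars) in 3 comparisons, with DE genes in red, a solid line at 0 and a dashed line at the median of all genes tested. Hamp moved by 1.18 in model against control and by -1.70 in silibinin against model, while the intervals of Mt1 and Mt2 cross 0 in all 3 panels.

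Slc40a1 encodes ferroportin, the iron exporter that hepcidin binds (ENSMUSG00000025993, chr1:45908068-45926523, minus strand). Its RNA, those of both ferritin chains and that of the transferrin receptor carry iron responsive elements, hairpins with the loop letters CAGTGN. They are printed here because these 4 genes share a control by iron regulatory proteins that the choice of genes did not use. UTRs of GENCODE M21 transcripts were searched on the transcript's strand for a C, 5 bases of any kind and CAGTGN, with 5 paired bases on each side of the loop, G with T counted as a pair. A match was found in 302 of 64327 coding transcripts with a UTR, 0.469%. Capitals mark the loop, T stands for U, and coordinates are those of GRCm38.
Slc40a1, 5′ UTR, chr1:45925465-45925492, minus strand: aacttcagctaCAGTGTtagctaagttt
Fth1, 5′ UTR, chr19:9982733-9982760, plus strand: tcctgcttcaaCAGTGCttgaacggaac
Ftl1, 5′ UTR, chr7:45459779-45459806, minus strand: tcttgcttcaaCAGTGTttgaacggaac
Tfrc, 3′ UTR, chr16:32631220-32631247, plus strand: attatcggaagCAGTGCcttccataatt
Tfrc, 3′ UTR, chr16:32631599-32631626, plus strand: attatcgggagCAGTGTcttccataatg
Tfrc, 3′ UTR, chr16:32631664-32631691, plus strand: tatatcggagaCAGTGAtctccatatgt
Tfrc, 3′ UTR, chr16:32631711-32631738, plus strand: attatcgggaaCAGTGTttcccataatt
Slc40a1, Fth1 and Ftl1 have 1 such stretch each in the UTR before the coding sequence, and Tfrc has 4 in the UTR after it. The stretches of Fth1 and Ftl1 share most of their letters. A match in letters does not show a bound protein.

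Slc40a1 stood at 13.2, 22.1 and 9.37 FPKM in control, 20.6, 8.81 and 28.5 in model, 21.2, 61.2 and 92.0 in silibinin and 15.8, 91.6 and 14.3 in phloridzin. Silibinin 2, silibinin 3 and phloridzin 2 were far above the other 9 livers, and all groups overlapped. The means were 14.9 ± 6.5, 19.3 ± 9.91, 58.1 ± 35.5 and 40.6 ± 44.2 FPKM (SD, n = 3). Slc40a1 did not pass the test in any of the 6 comparisons. Its log2 fold change was 0.29 (interval -1.35 to 1.93, adjusted p 0.782) in model against control, 1.45 (interval -0.18 to 3.09, adjusted p 0.225) in silibinin against model and 0.64 (interval -0.99 to 2.28, adjusted p 0.620) in phloridzin against model, by limma. The first of these values was -0.15 with median-ratio size factors and -0.05 without model 3, and the last was -0.20 without phloridzin 2. In silibinin against control it was 1.75 with an unadjusted p of 0.0387 and an adjusted p of 0.203.

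The 3 high livers differed from the rest in the transcript ENSMUST00000027137, which codes for the protein and holds the printed element. It stood at 52.5 FPKM in silibinin 2, 83.8 in silibinin 3 and 84.5 in phloridzin 2, and between 3.37 and 18.1 in the other 9 livers. A pair of transcripts with retained introns, ENSMUST00000186755 and ENSMUST00000191247, ranged only from 1.56 to 3.87 and from 1.81 to 5.83 FPKM. Ferroportin is also high in macrophages. The 14 Kupffer cell and macrophage markers summed to 183, 281 and 238 FPKM in control, 330.4, 539 and 442 in model, 334, 444 and 351 in silibinin and 648, 571 and 356 in phloridzin. Cd5l was the most abundant, and 0 of the 14 were at 0 in all livers. The part of these cells in the levels of Slc40a1 was not tested.

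Tfrc encodes the transferrin receptor, which brings iron-loaded transferrin into cells (ENSMUSG00000022797, chr16:32608920-32632794, plus strand). It stood at 7.09, 11 and 6.75 FPKM in control, 21.6, 14.1 and 19.3 in model, 9.91, 12.8 and 11 in silibinin and 17.2, 9.26 and 10.9 in phloridzin. The model livers were above all control and silibinin livers, and phloridzin 1 lay among the model livers. The means were 8.28 ± 2.36, 18.4 ± 3.87, 11.2 ± 1.46 and 12.4 ± 4.17 FPKM (SD, n = 3).

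Tfrc rose in the model livers with a log2 fold change of 1.07 (interval 0.52 to 1.62) and an adjusted p of 0.00800 by limma. Its adjusted p stayed under 0.05 when any liver was left out, while the log2 fold change slipped under 1 without control 1 (0.98), control 3 (0.95) or model 1 (0.95). The call was lost with median-ratio size factors (0.63, adjusted p 0.0546) and with the most abundant transcript alone (0.79, adjusted p 0.112), and with coding transcripts only it was 0.91 at an adjusted p of 0.0261. Over all alternatives the adjusted p ran from 0.00339 to 0.112. In silibinin against model it was -0.65 (interval -1.19 to -0.10), lower in 3 of 3 livers, with an adjusted p of 0.109. In phloridzin against model it was -0.55 (interval -1.10 to -0.0015) with an adjusted p of 0.178, and without phloridzin 1 it was -0.79 with an adjusted p of 0.0465 (range over the alternatives 0.0465 to 0.439).

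The transcript of Tfrc with the 4 printed stretches, ENSMUST00000023486, held 42.8% to 56.3% of the group sums. It stood at 4.33, 6.06 and 3.60 FPKM in control and at 9.74, 7.0 and 9.48 in model. ENSMUST00000120680, a shorter coding transcript, held 19.3% to 29.6%, and ENSMUST00000128285, with a retained intron, held 15.4% to 20.7%.

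Tfr2 encodes the second transferrin receptor, which senses loaded transferrin on hepatocytes and takes part in hepcidin control (ENSMUSG00000029716, chr5:137569840-137587481, plus strand). It stood at 139, 37.9 and 91.9 FPKM in control, 37.2, 48.0 and 24.6 in model, 31.9, 86.7 and 35.2 in silibinin and 23.1, 74.2 and 98.1 in phloridzin. All groups overlapped, and the model group was the only one with no liver above 48.0. The means were 89.8 ± 50.8 FPKM in control, 36.6 ± 11.7 in model, 51.3 ± 30.7 in silibinin and 65.1 ± 38.3 in phloridzin (SD, n = 3). Its log2 fold change in model against control was -1.14 (interval -2.49 to 0.22) with an adjusted p of 0.171 by limma. Over the alternatives it ran from -2.11 with the most abundant transcript alone to -0.73 without control 1, with adjusted p from 0.0731 to 0.443. Tfr2 did not pass in the other comparisons. A single transcript, ENSMUST00000196471, stood at 110.8 FPKM in control 1 and 64.5 in silibinin 2 and at or below 1.22 in the other 10 livers. The transcripts ENSMUST00000031729, ENSMUST00000199054 and ENSMUST00000198866 were high together in control 3, phloridzin 2 and phloridzin 3, where the first of them stood at 24.2, 21 and 24. In model 2 the first and the last were at 17.2 and 7.99 while ENSMUST00000199054 was at 0. ENSMUST00000198783 ranged from 3.49 to 20.1 and ENSMUST00000200190, with a retained intron, from 2.36 to 6.56.

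**Figure D3:**
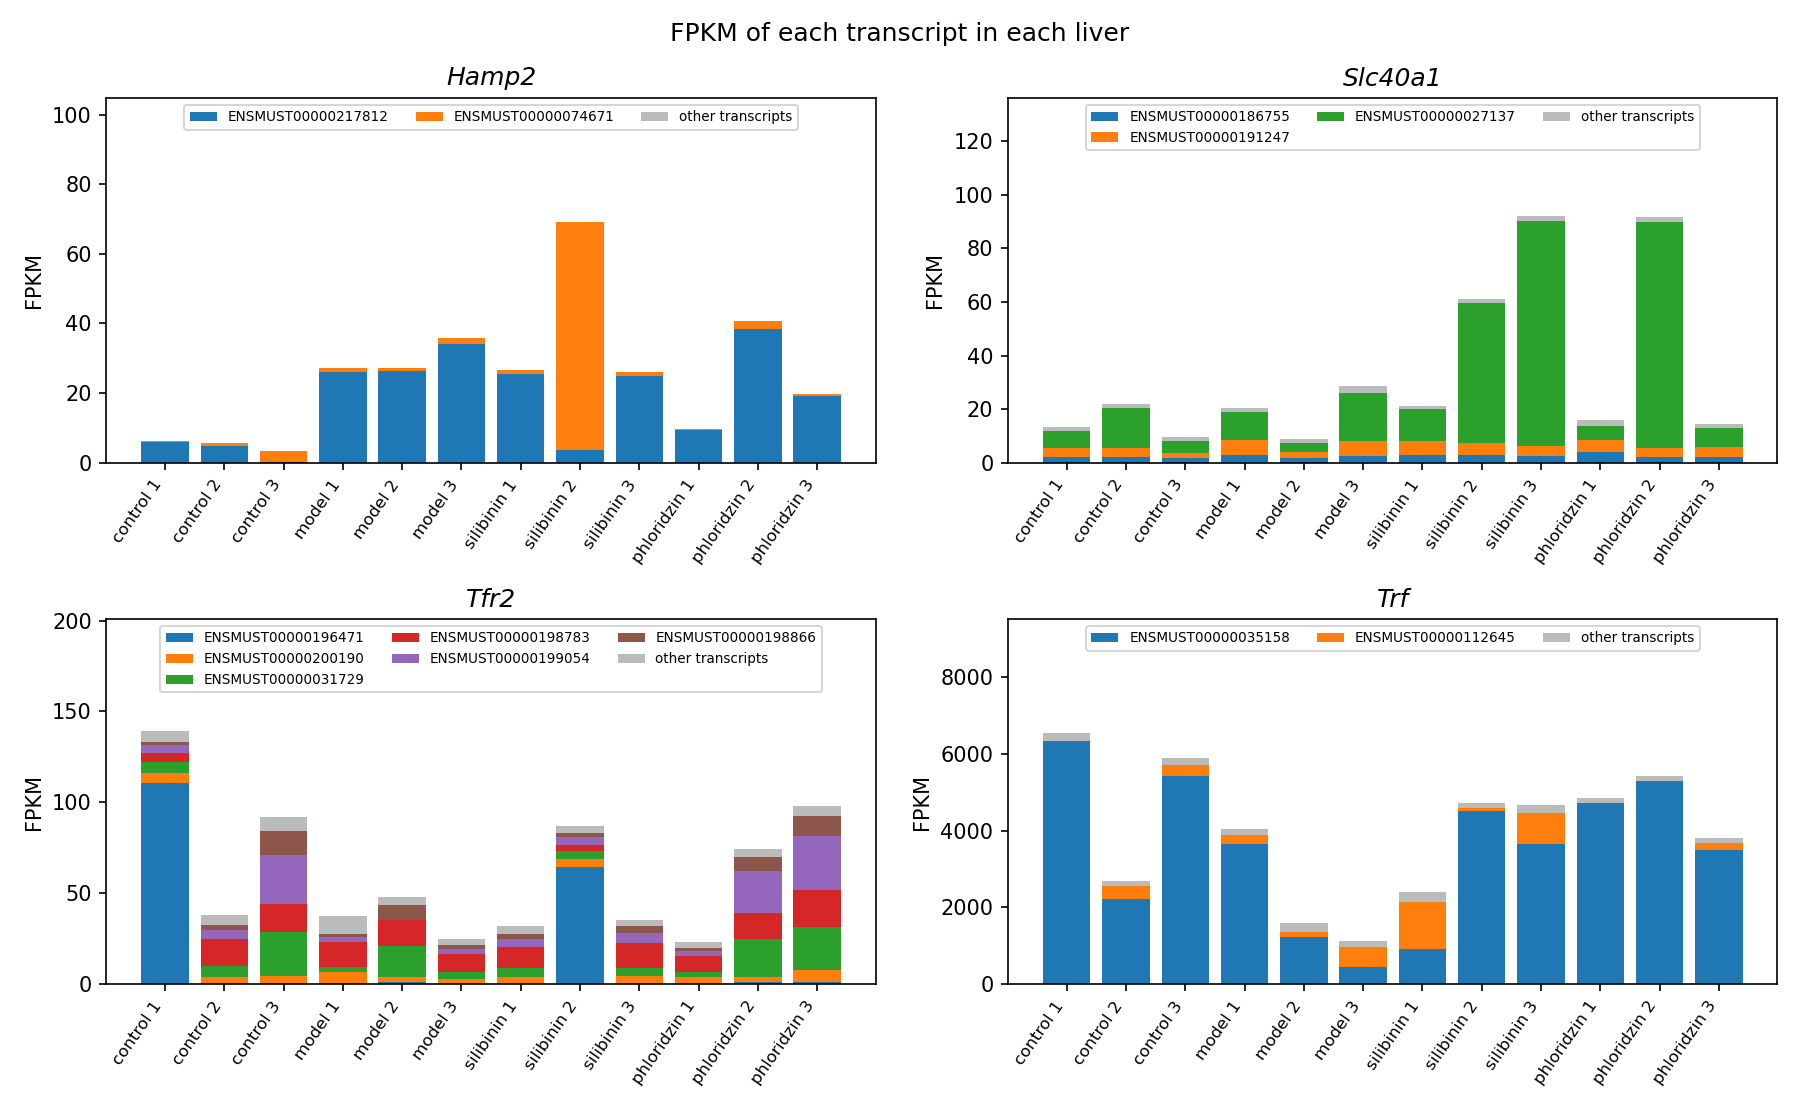
FPKM of the transcripts of Hamp2, Slc40a1, Tfr2 and Trf in each of the 12 livers, stacked in linear bars from 0, with transcripts under 10% of every group's sum in grey. In silibinin 2, 65.6 FPKM of Hamp2 came from a transcript that is at or below 3.26 elsewhere, and 64.5 FPKM of Tfr2 came from one that is high in only 1 other liver, control 1.

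Fth1 and Ftl1 encode the heavy and light chains of ferritin, the iron store of the cell (ENSMUSG00000024661, chr19:9982703-9985092, plus strand, and ENSMUSG00000050708, chr7:45457944-45459884, minus strand). Fth1 was the steadiest of the 10 genes, at 410.2, 425 and 441 FPKM in control, 454, 722 and 622 in model, 464, 491 and 457 in silibinin and 707, 425 and 439.8 in phloridzin. Every model liver and every silibinin liver was above every control liver, and phloridzin 1 lay among the model livers. Mean levels were 425 ± 15.4, 599 ± 135, 471 ± 18.1 and 524 ± 159 FPKM (SD, n = 3). Fth1 was 1 of 4 members whose model and control livers did not overlap, with Hamp, Hamp2 and Tfrc, where 52.0% of all genes did not. Its log2 fold change was 0.47 (interval -0.03 to 0.97) with an adjusted p of 0.130 by limma, and it was -0.32 and -0.21 in silibinin and phloridzin against model (adjusted p 0.384 and 0.596). The value in model against control was -0.01 with median-ratio size factors. In those comparisons the livers did not overlap for 2 members, Hamp and Tfrc, and for 1 member, Hamp, where 36.7% and 30.6% of all genes did not.

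Ftl1 stood at 1548, 1544 and 1426 FPKM in control, 1435, 1607 and 1908 in model, 1006, 1284 and 1924 in silibinin and 3144, 1484 and 1497 in phloridzin. Phloridzin 1 was far above the other 11 livers, and all groups overlapped. Mean levels were 1506 ± 69.1, 1650.0 ± 239, 1405 ± 471 and 2042 ± 955 FPKM (SD, n = 3). The log2 fold change was 0.12 (interval -0.60 to 0.85, adjusted p 0.794) in model against control, -0.27 in silibinin and 0.22 in phloridzin against model (adjusted p 0.629 and 0.707). It was -0.35 in model against control with median-ratio size factors. The value in phloridzin against model was -0.00362 with coding transcripts only and -0.14 without phloridzin 1. In phloridzin 1 a transcript with a retained intron, ENSMUST00000211500, reached 862 FPKM, against 10.6 to 512 in the other livers, and the coding transcript ENSMUST00000094434 stood at 2211, against 852 to 1822. The pseudogene Ftl1-ps1 shares a run of 524 bases and 73.4% of the 50-base stretches of this transcript and stood between 20.4 and 53.7 FPKM. Ftl1-ps2, with 13.6%, was at most 1.09.

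The ratio of Ftl1 to Fth1 lay between 2.17 in silibinin 1 and 4.45 in phloridzin 1. It was 3.77, 3.63 and 3.23 in control and 3.16, 2.23 and 3.07 in model. The mean log2 ratio was lower in model by the difference -0.35, with an exact permutation p of 0.1, the smallest possible here, and higher in phloridzin than in model by 0.43, also with an exact p of 0.1. Without model 2 these differences were -0.19 and 0.27. With coding transcripts only they were -0.19 and 0.21, with exact p of 0.4 and 0.3, so the separation of the groups holds for the sums alone.

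Trf encodes transferrin, the iron carrier of plasma that hepatocytes secrete (ENSMUSG00000032554, chr9:103204001-103230444, minus strand). It was the most abundant of the 10 genes, at 6545, 2694 and 5896 FPKM in control, 4048, 1597 and 1129.7 in model, 2385, 4731 and 4676 in silibinin and 4839, 5422 and 3807 in phloridzin. A pair of model livers had the lowest values of all 12, and model 1 lay within the range of the control, silibinin and phloridzin livers, so that all groups overlapped. The means were 5045 ± 2062, 2258 ± 1567, 3931 ± 1339 and 4689 ± 818 FPKM (SD, n = 3).

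Trf had a log2 fold change of -1.28 (interval -2.41 to -0.15) in model against control, with an unadjusted p of 0.0304 and an adjusted p of 0.0750 by limma. It passed without control 2 (-1.68, adjusted p 0.0411), without model 1 (-1.81, adjusted p 0.0188) and with median-ratio size factors (-1.75, adjusted p 0.0341), and its adjusted p ran up to 0.240 over the alternatives. In phloridzin against model it was 1.26 (interval 0.13 to 2.39) with an adjusted p of 0.138, and 1.79 with 0.0442 without model 1 (range over the alternatives 0.0442 to 0.345). In silibinin against model it was 0.95 (interval -0.18 to 2.08) with an adjusted p of 0.252.

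The main transcript of Trf, ENSMUST00000035158, ran from 436 FPKM in model 3 to 6342 in control 1. A shorter coding transcript, ENSMUST00000112645, stood at 1241 in silibinin 1, 811 in silibinin 3 and 523 in model 3, and at or near 0 in control 1, phloridzin 1 and phloridzin 2. Gm20425, a coding gene that overlaps Trf on the same strand, had 0 FPKM in control 3, model 1, silibinin 1 and silibinin 3 and up to 614 in model 2. How the authors' programs divided reads among these transcripts was not tested.

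Mt1 and Mt2 encode the main metallothioneins of liver and lie side by side (ENSMUSG00000031765, chr8:94179082-94180327, and ENSMUSG00000031762, chr8:94172664-94173568, both plus strand). Since the pair moved together from liver to liver, the 250 bases before each start are printed from RefSeq on GRCm38.p6, 5′ to 3′. Capitals mark matches on both strands to TGCGCNC or TGCACNC, the core letters of a metal response element.
Mt1, chr8:94178839-94179088, plus strand: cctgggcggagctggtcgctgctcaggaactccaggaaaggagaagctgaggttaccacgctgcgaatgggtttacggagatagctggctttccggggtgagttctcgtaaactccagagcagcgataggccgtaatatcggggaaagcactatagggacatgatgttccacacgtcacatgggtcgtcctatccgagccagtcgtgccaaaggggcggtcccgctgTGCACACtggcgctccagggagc
Mt2, chr8:94172368-94172617, plus strand: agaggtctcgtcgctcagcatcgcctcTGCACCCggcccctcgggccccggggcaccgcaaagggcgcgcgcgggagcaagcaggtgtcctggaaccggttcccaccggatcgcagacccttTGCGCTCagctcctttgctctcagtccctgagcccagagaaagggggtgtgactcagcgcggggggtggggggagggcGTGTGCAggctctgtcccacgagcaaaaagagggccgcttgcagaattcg
Mt1 has 1 match before its start, 23 bases from it, and 2 in the 50 bases after it. Mt2 has 3 before its start, at 223, 128 and 50 bases, and 1 after it. At least 1 match occurs in 25.7% of 32851 promoter windows of 300 bases. Among the other members, Tfrc has 2 such matches.

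Mt1 stood at 312, 119 and 189 FPKM in control, 267, 426 and 64.5 in model, 179, 67.9 and 111 in silibinin and 37.0, 83.9 and 285 in phloridzin. Mt2 stood at 412, 83.0 and 179.6 in control, 376, 414 and 86.3 in model, 333, 41.0 and 171 in silibinin and 36.0, 96.3 and 362 in phloridzin. Mt1 ran from 64.5 to 426 within the model group and from 37.0 to 285 within the phloridzin group, and all groups overlapped for both genes. The means of Mt1 were 207 ± 97.5, 252 ± 181, 119 ± 56.0 and 135 ± 131 FPKM, and those of Mt2 were 225 ± 169, 292 ± 179, 182 ± 146 and 165 ± 174 FPKM (SD, n = 3). The highest value was 11.5 times the lowest for each of the pair.

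No comparison passed the test for Mt1 or Mt2. In model against control the log2 fold changes were 0.02 (interval -1.76 to 1.81, adjusted p 0.984) for Mt1 and 0.38 (interval -1.86 to 2.61, adjusted p 0.796) for Mt2, by limma. In silibinin against model they were -0.81 and -0.84, and in phloridzin against model -1.01 and -1.13, with adjusted p between 0.460 and 0.634. With median-ratio size factors the change of Mt1 in model against control was -0.45 and that of Mt2 -0.10. Without control 2 they were -0.32 and -0.19, without model 2 -0.54 and -0.02, and for Mt1 without model 1 -0.20. In silibinin against model Mt2 was at 0.00156 without silibinin 2. The intervals in model against control hold changes of more than 2-fold in either direction.

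Across the 12 livers Mt1 and Mt2 followed each other closely. Pearson's r of log2(FPKM + 1) was 0.94 with a permutation p of 1e-05, the smallest that 100000 permutations give, and Spearman's rho was 0.93 with a permutation p of 4e-05. Adjusted over the 16 relations computed, these are 0.00016 and 0.00064. Without silibinin 2 and phloridzin 1, the 2 livers farthest from the median of Mt2, r was 0.91, and r between deviations from the group means was 0.94. The ratio of Mt2 to Mt1 lay between 0.604 in silibinin 2 and 1.86 in silibinin 1. It did not differ between model and control beyond the spread (difference of mean log2 ratios 0.36, exact permutation p 0.2). The longest identical run between the main transcripts, ENSMUST00000034215 of Mt1 and ENSMUST00000034214 of Mt2, is 20 bases.

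Metallothioneins belong to the acute phase response, so Mt1 was set beside 15 acute phase genes. Of these, 14 had a positive r with Mt1 and 11 an adjusted permutation p under 0.05 for both r and rho. The lowest r and rho among these 11 were 0.65 and 0.69, and 71 of all 13157 genes tested other than Mt1, or 0.540%, had both at least that high. The 71 include the 11, which meet this cut because their own values set it. Over all genes 37.6% had a positive r with Mt1. The closest of the 15 was Fga, a fibrinogen chain, with r 0.91 (permutation p 0.00013, adjusted 0.000907) and rho 0.91 (permutation p 0.00013, adjusted 0.00104). Without model 3 and phloridzin 1, r with Fga was 0.83. Fgg, Fgb, Serpina3n and Apcs followed with r of 0.89, 0.86, 0.83 and 0.81, and Saa1, Saa2 and Lcn2 had 0.70, 0.77 and 0.80. Hp, Saa3, Itih4 and Orm1 did not pass, with r of 0.43, 0.42, 0.15 and -0.20. The median r over the 15 genes was 0.77, and 0.85 between deviations from the group means, beside -0.11 and -0.18 over all genes.

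Saa1, serum amyloid A, differed widely between livers of 1 group, at 1776, 656 and 3717 FPKM in control, 504, 376 and 31.0 in model, 1042, 127 and 746 in silibinin and 91.6, 280.2 and 1768 in phloridzin. Control 2, model 3, silibinin 2 and phloridzin 1 were the lowest livers of their groups for Saa1, Fga and Mt1. As a list, the 15 acute phase genes had 0 with higher and 1 with lower values at an adjusted p under 0.05 in model against control, where 31.1% and 3.80% of all genes had. Under each drug against model there were 0, where 2.62% and 11.4% of all genes were higher and lower under silibinin and 2.50% and 10.4% under phloridzin. At an unadjusted p under 0.05 the counts were 2 lower, 1 lower and 1 lower, where 5.59%, 22.5% and 20.8% of all genes were lower. Voom gave 1, 0 and 0. The list's median log2 fold change in model against control was -0.72, where all genes had 0.34. With median-ratio size factors the median was -1.19, where all genes had -0.01, and 0 genes of the list were higher and 1 lower. Hp, haptoglobin, had -1.30 with an adjusted p of 0.0457 by limma. That call was lost without control 1 or 3, without any single model liver, without silibinin 3 or without phloridzin 2, with adjusted p from 0.0502 to 0.139.

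**Figure D4:**
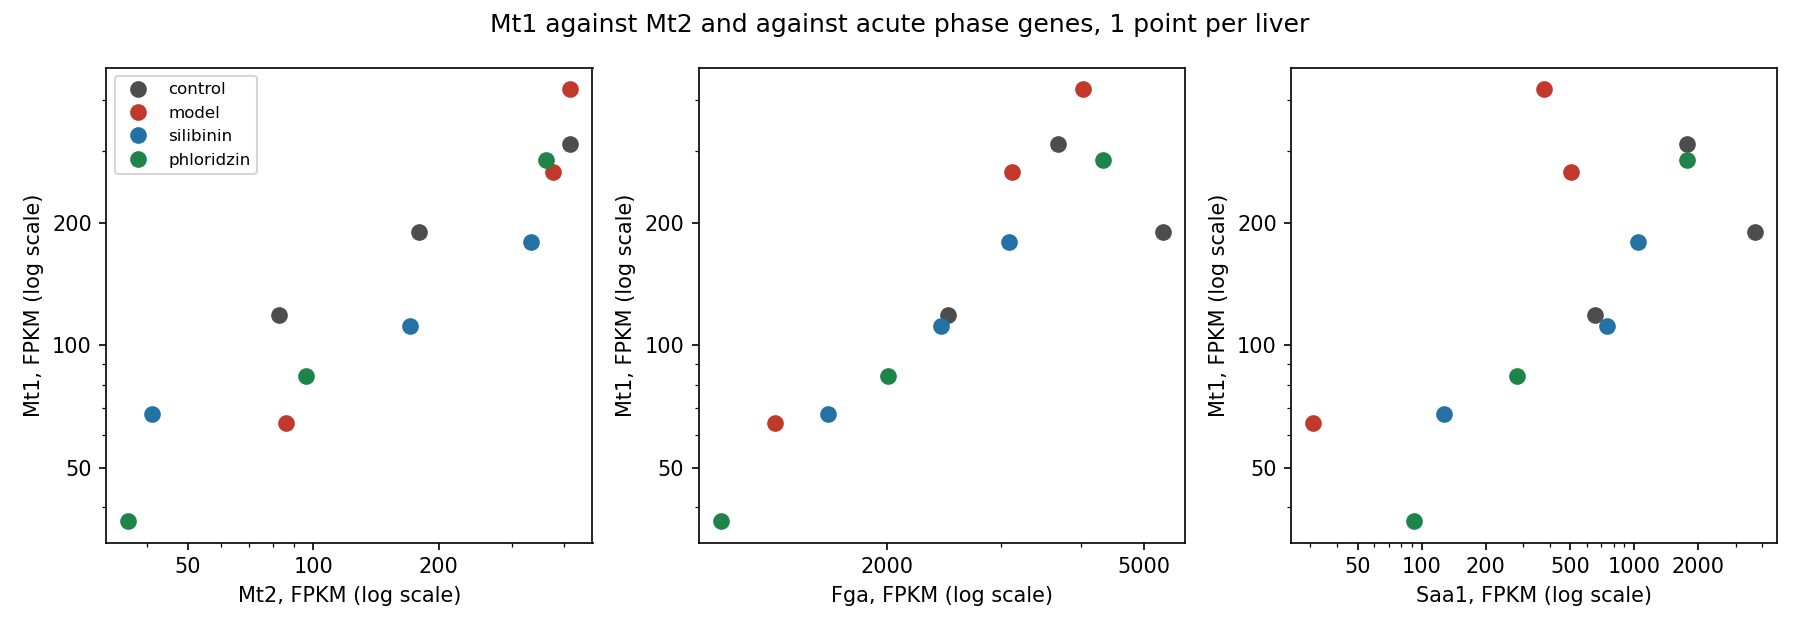
Mt1 against Mt2, Fga and Saa1 in FPKM on log axes, 1 point per liver, coloured by group. The points rise together in each panel (r of 0.94, 0.91 and 0.70).

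Set in order of mean FPKM, which is per length, the 10 genes run from Trf at 3981 through Ftl1 at 1651, Hamp at 939.8, Fth1 at 505, Mt2 at 216, Mt1 at 178, Tfr2 at 60.7, Slc40a1 at 33.2 and Hamp2 at 24.8 to Tfrc at 12.6. Trf was above Ftl1 in 10 livers, Ftl1 above Hamp in 10, Hamp above Fth1 in 11, Fth1 above Mt2 in 11 and Mt1 above Tfr2 in 11. Tfr2 was above Slc40a1 in 9 livers, Hamp2 above Tfrc in 8, Mt2 above Mt1 in 7 and Slc40a1 above Hamp2 in 6. Some of these orders differed by group. In the model group Trf was above Ftl1 and Ftl1 above Hamp in 1 of 3 livers each, and in all 3 livers of every other group. Hamp2 was below Tfrc in all 3 control livers and above it in all 3 model and all 3 silibinin livers, and Slc40a1 was above Hamp2 in all 3 control livers and below it in all 3 model livers. Differences in level between neighbours were not tested. The highest liver was 20.2 times the lowest for Hamp2, 10.4 times for Slc40a1, 6.03 times for Tfr2, 5.79 times for Trf, 5.44 times for Hamp, 3.20 times for Tfrc, 3.13 times for Ftl1 and 1.76 times for Fth1.

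Genes whose log2 levels over the 12 livers were most like those of 4 members, among 11610 genes with a mean of at least 1 FPKM, are given as a description. For Hamp they were Senp6 (r 0.94), Syvn1 (0.91) and Gpr180 (0.89). Syvn1, an enzyme of protein quality control in the endoplasmic reticulum, stood at 33.7 to 48.5 FPKM in the model livers and at 2.39 to 10.7 elsewhere. For Tfrc they were Luc7l3 (0.96), Ruvbl2 (0.96) and Snrnp40 (0.95), for Slc40a1 Ppp2r5a (0.92), Grsf1 (0.92) and Uox (0.84), and for Mt1 Slc37a1 (0.94), Scara5 (0.94) and Prtn3 (0.94). Scara5 is a receptor for ferritin.

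The wider pathways were read from 15 lists of 213 genes, of which 211 were matched. Over all genes tested, median-ratio size factors gave 12.6% higher and 12.7% lower in model against control, 5.58% and 6.33% under silibinin against model, and 4.68% and 6.18% under phloridzin against model. At an unadjusted p under 0.05 these shares were 40.2% and 5.59%, 6.74% and 22.5%, and 6.98% and 20.8%. By voom they were 30.1% and 3.75%, 2.21% and 13.8%, and 1.83% and 12.2%. Of 24 tested genes of hepcidin control, 8 had higher and 2 lower values in model than in control at an adjusted p under 0.05, where 31.1% and 3.80% of all genes did, with a median log2 fold change of 0.26 beside 0.34 for all genes. With median-ratio size factors the counts turned to 3 higher and 6 lower. Id1, a target of BMP signals, rose from 2.73, 5.61 and 3.11 FPKM in control to 14.5, 25.7 and 36.4 in model, by 2.42 on the log2 scale (adjusted p 0.0157, and 0.0549 without model 3). Smad7, an inhibitor in the same path, rose by 1.24 (adjusted p 0.00164). Socs3, an inhibitor downstream of STAT3, rose by 1.59 (adjusted p 0.0110, and 0.0533 with median-ratio size factors), and Fgl1, a secreted hepatocyte protein that restrains hepcidin, fell by 1.47 (adjusted p 0.0172, 0.0631 without control 3 and 0.0537 by voom). Bmp6, the main BMP ligand of hepcidin, stood at 1.74, 1.54 and 1.65 FPKM in control and 1.21, 0.927 and 1.48 in model.

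Under silibinin 2 of the 24 hepcidin control genes were higher and 4 lower than in model, where 2.62% and 11.4% of all genes were. Under phloridzin 2 were higher and 2 lower, where 2.50% and 10.4% of all genes were. The medians were -0.13 and -0.21. With median-ratio size factors 3 were higher and 0 lower under silibinin, and 3 and 1 under phloridzin. Socs3 stood at 16.7, 21.2 and 5.82 FPKM in model, at 3.38 to 5.24 in silibinin and at 2.18 to 5.07 in phloridzin, with log2 fold changes of -1.39 (adjusted p 0.0400) and -1.54 (adjusted p 0.0292). These calls of Socs3 are lost in many alternatives. Under silibinin the adjusted p was between 0.0505 and 0.136 without any single control liver, model 1, model 2, any single silibinin liver or phloridzin 3. Under phloridzin it was between 0.0522 and 0.0990 without model 1, model 2 or any single phloridzin liver. Hfe2, the table's symbol for hemojuvelin, a BMP co-receptor, was higher under phloridzin than in model by 1.3 (adjusted p 0.0293). Its adjusted p was 0.0920 without model 1, 0.0807 without model 2 and 0.106 without phloridzin 2.

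Of 14 tested genes of iron transport and reduction, 4 were higher and 1 lower in model, where 31.1% and 3.80% of all genes were, 1 and 1 under silibinin against model, and 1 and 1 under phloridzin against model. Median-ratio size factors gave 2 and 1, with a median log2 fold change of -0.27, in model against control, and 1 and 0 under each drug. Slc11a1, an iron transporter of macrophage phagosomes, rose by 1.39 in model (adjusted p 0.000688). With coding transcripts only it was 0.77 (adjusted p 0.176). Steap3, a ferric reductase of endosomes, rose by 1.04 under silibinin against model (adjusted p 0.00574), from 3.46, 2.43 and 4.45 FPKM to 8.01, 9.75 and 6.45. Of 7 tested genes of iron storage and iron regulatory proteins, 3 were higher and 0 lower in model, where 31.1% and 3.80% of all genes were. An unadjusted p under 0.05 and voom each gave 4 and 0, and median-ratio size factors gave 2 and 2. Against model there were 1 and 2 under silibinin (the same in these 3 alternatives), where 2.62% and 11.4% of all genes were. Under phloridzin there were 0 and 1 (1 and 2 at an unadjusted p under 0.05, 0 and 1 by voom, 1 and 1 with median-ratio size factors), where 2.50% and 10.4% of all genes were. Pcbp1, which hands iron to ferritin, rose by 2.55 in model (adjusted p 0.00638). It was lower under silibinin than in model by the log2 fold change -2.33 (adjusted p 0.0205), which missed the threshold without model 3 (-1.86, 0.0668) and without silibinin 1 (-1.66, 0.0502).

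Of 21 genes of heme metabolism, 2 were higher and 1 lower in model, where 31.1% and 3.80% of all genes were. Under silibinin against model there were 1 and 1, where 2.62% and 11.4% of all genes were (1 and 3 at an unadjusted p under 0.05, 1 and 2 by voom, 1 and 1 with median-ratio size factors). Under phloridzin there were 1 and 0, where 2.50% and 10.4% of all genes were (2 and 3 at an unadjusted p under 0.05, 1 and 3 by voom, 1 and 0 with median-ratio size factors). The median in model against control was -0.05 beside 0.34 for all genes. With median-ratio size factors 1 was higher and 6 were lower, where 12.6% and 12.7% of all genes were. Hmox1, heme oxygenase, rose from 16.5, 10.7 and 10.2 FPKM in control to 32.3, 60.6 and 50.6 in model, by 1.84 (adjusted p 0.00144). It fell by 1.36 under silibinin (adjusted p 0.0147), and this call was lost without model 2 (-1.16, 0.0600), silibinin 1 (-1.22, 0.0583) or silibinin 2 (-1.25, 0.0519). Alas1, the gate of heme synthesis, rose by 1.06 in model (adjusted p 0.0334), with 0.0562 to 0.0965 without control 2, control 3 or any single model liver and 0.253 with median-ratio size factors. Flvcr2 was higher than in model by 1.20 under silibinin (adjusted p 0.0143) and by 1.03 under phloridzin (adjusted p 0.0307). These calls were lost without model 1 (adjusted p 0.0512 and 0.0972), model 2 (0.0584 and 0.105), silibinin 3 (0.0577), phloridzin 2 (0.111) and phloridzin 3 (0.0979).

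Of 21 genes of iron-sulfur cluster assembly, 2 were higher and 0 lower in model, where 31.1% and 3.80% of all genes were (3 and 0 at an unadjusted p under 0.05, where 40.2% and 5.59% were, and 1 and 0 by voom, where 30.1% and 3.75% were). There were 0 and 1 under silibinin (0 and 2, 0 and 1), where 2.62% and 11.4% of all genes were. Under phloridzin there were 0 and 1 (1 and 1, 0 and 1), where 2.50% and 10.4% of all genes were. With median-ratio size factors the counts in model against control turned to 0 higher and 2 lower, and they were 0 and 0 under each drug. Ciapin1 had 1.15 (adjusted p 0.0309), a call lost without control 2 (0.90, 0.109), model 1 (0.90, 0.107) or model 3 (1.23, 0.0537), and with coding transcripts only the value was -0.12.

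Zinc and copper handling, the list closest to the metallothioneins, is also the largest of the 15. Of 26 tested genes, 13 were higher and 2 lower in model than in control, where 31.1% and 3.80% of all genes were, with a median log2 fold change of 0.48. With median-ratio size factors 6 were higher and 4 lower, with a median of 0.06, where 12.6% and 12.7% of all genes were. Slc39a6 rose from 0.642, 0.599 and 0.760 FPKM to 3.15, 3.10 and 3.55 (1.36, adjusted p 2.73e-05), and Slc30a4 from 4.76, 4.75 and 4.28 to 12.3, 12.6 and 13.2 (1.29, adjusted p 4.06e-05). Slc39a4 rose by 1.18 (adjusted p 0.00908) and Slc30a7 by 1.01 (adjusted p 0.000643, and 0.0685 with coding transcripts only). The SLC39 proteins move zinc into the cytosol and the SLC30 proteins move it out.

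Under silibinin 1 of the 26 was higher and 8 were lower than in model, where 2.62% and 11.4% of all genes were. Under phloridzin there were 2 and 6, where 2.50% and 10.4% of all genes were. The medians were -0.23 and -0.11. Slc39a6 fell by 1.15 under silibinin (adjusted p 0.000108) and by 1.13 under phloridzin (adjusted p 0.000114), and Slc39a7 fell by 1.21 (adjusted p 0.00368) and by 1.49 (adjusted p 0.00119). Slc39a11 fell by 1.14 (adjusted p 0.00717) and Slc30a5 by 1.03 (adjusted p 0.000482) under silibinin. The difference between the drugs did not pass the test for any of these 4 transporters. With median-ratio size factors the counts were 2 higher and 6 lower under silibinin and 2 and 5 under phloridzin. Mt1 and Mt2, which bind zinc themselves, did not pass in any comparison.

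**Figure D5:**
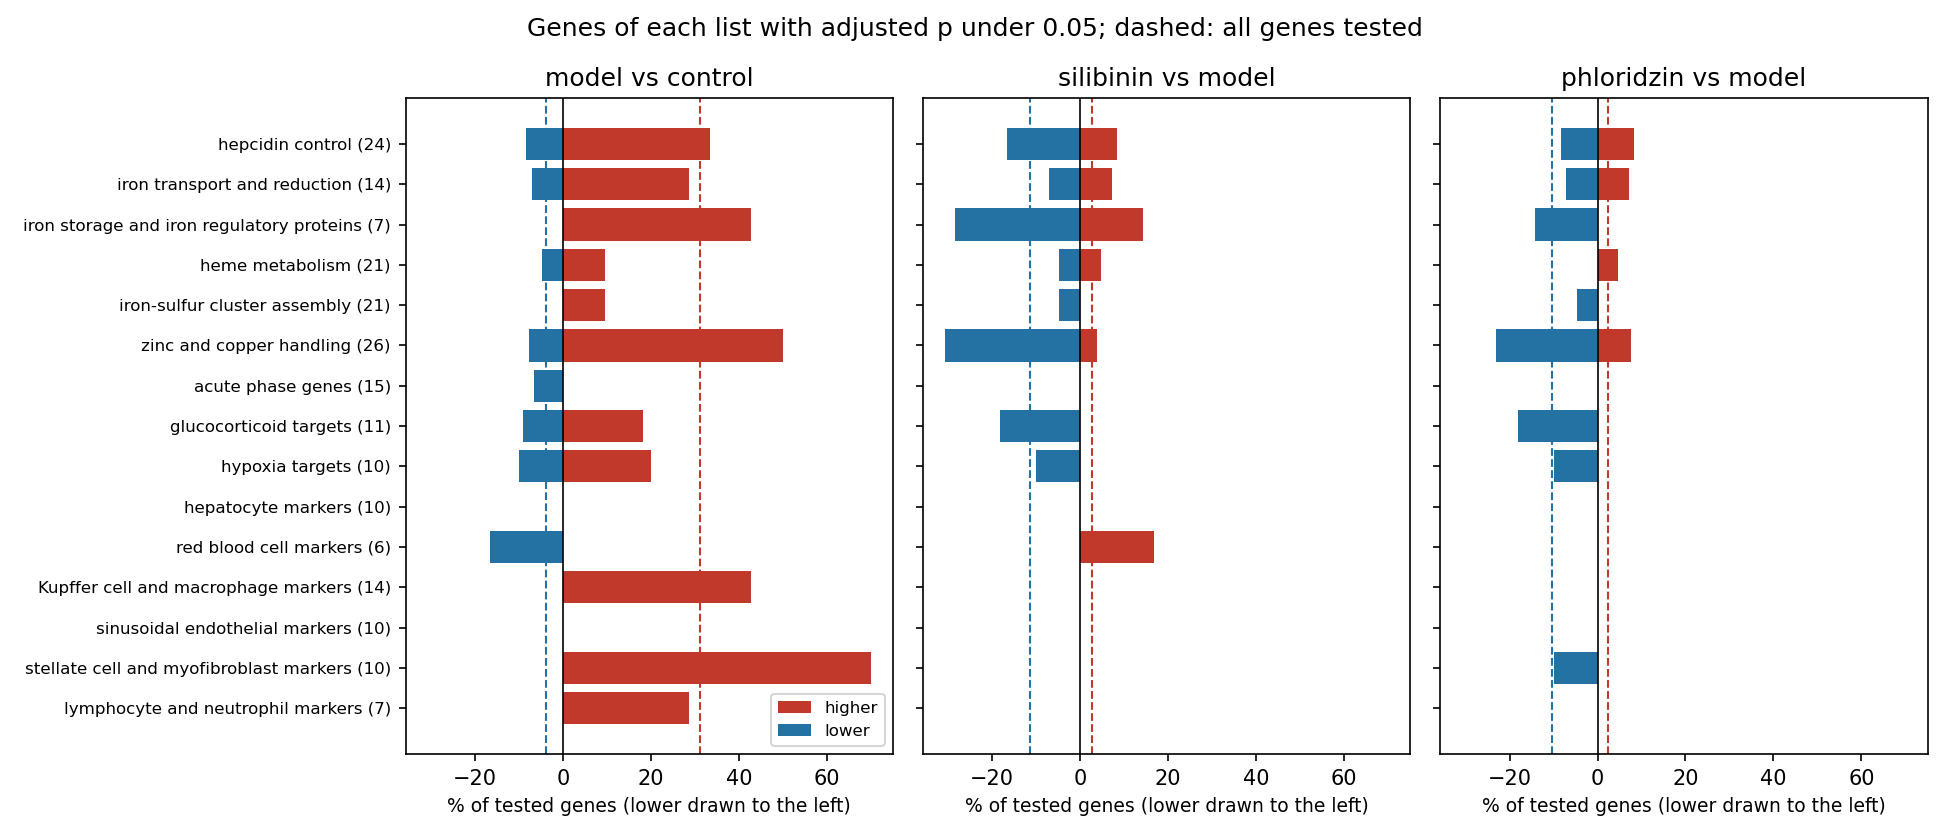
Percent of the tested genes of each list (number in brackets) with an adjusted p under 0.05, higher to the right in red and lower to the left in blue, in 3 comparisons, with dashed lines for all genes tested. In model against control 13 of 26 zinc and copper genes and 7 of 10 stellate cell markers are higher, beside 31.1% of all genes. With median-ratio size factors the counts are 6 and 4, beside 12.6% of all genes.

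Of 11 glucocorticoid targets, 2 were higher and 1 lower in model, where 31.1% and 3.80% of all genes were (2 and 3 with median-ratio size factors, where 12.6% and 12.7% were). The list's median log2 fold change was -0.53, and -0.95 with median-ratio size factors, beside 0.34 and -0.01 for all genes. Under silibinin there were 0 and 2 (2 and 3 at an unadjusted p under 0.05, 0 and 2 by voom, 2 and 1 with median-ratio size factors), where 2.62% and 11.4% of all genes were. Under phloridzin there were 0 and 2 (0 and 2, 0 and 2, 0 and 1), where 2.50% and 10.4% of all genes were. Sgk1 rose from 12.8, 10.7 and 11.4 FPKM to 50.9, 40.2 and 30.8 in model (1.70, adjusted p 0.000182) and fell by 1.31 under silibinin (adjusted p 0.00141). Angptl4 fell by 1.32 in model (adjusted p 0.00157). Dusp1 rose by 1.49 in model (adjusted p 0.00389, and 0.127 with coding transcripts only) and had -1.09 and -1.14 under silibinin and phloridzin (adjusted p 0.0348 and 0.0325). Both of the latter calls were lost without model 2 or model 3 and without silibinin 1 or 3, or phloridzin 1 or 3, with adjusted p from 0.0694 to 0.121. Of 10 tested hypoxia targets, 2 were higher and 1 lower in model (1 and 1 with median-ratio size factors), 0 and 1 under silibinin (the same unadjusted, by voom and with median-ratio size factors) and 0 and 1 under phloridzin (1 and 1 at an unadjusted p under 0.05, 0 and 1 otherwise). The shares of all genes are those given beside the glucocorticoid targets. Ndrg1 rose by 1.29 in model (adjusted p 0.00411).

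Markers of other cells are given beside the 31.1% of all genes that were higher in model than in control and the 3.80% that were lower, or 12.6% and 12.7% with median-ratio size factors. These shares were 40.2% and 5.59% at an unadjusted p under 0.05, and 30.1% and 3.75% by voom. Of 14 Kupffer cell and macrophage markers, 6 were higher and 0 lower in model (10 and 0 at an unadjusted p under 0.05, 6 and 0 by voom, 2 and 1 with median-ratio size factors). Gpnmb rose from at most 0.347 FPKM in control to 28.9, 20.8 and 44.7 in model (4.73, adjusted p 0.000389) and Trem2 by 2.78 (adjusted p 0.000458, and 0.0780 with the most abundant transcript alone). Of 10 stellate cell and myofibroblast markers, 7 were higher and 0 lower (the same by voom and unadjusted, 4 and 1 with median-ratio size factors). Their summed FPKM was 43.6, 41.3 and 39.7 in control, 179.9, 145 and 186 in model, 178, 175 and 89.1 in silibinin and 239, 109.5 and 86.4 in phloridzin, with Col3a1 the most abundant. Col1a1 rose by 4.35 (adjusted p 0.000421), Col3a1 by 3.75 (adjusted p 0.000391) and Lrat by 1.47 (adjusted p 0.000322). Col1a2 rose by 1.52 (adjusted p 0.0208), a call lost without control 2 (0.0538), control 3 (0.0613) or model 1 (1.02, 0.0587). Of 7 tested lymphocyte and neutrophil markers, 2 were higher and 0 lower (5 and 0 unadjusted, 3 and 0 by voom, 1 and 0 with median-ratio size factors), and Itgam rose by 1.69 (adjusted p 0.000867). Their summed FPKM was 9.26 to 22.2 in control and 30.0 to 72.4 in model, with S100a8 the most abundant.

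Of 10 sinusoidal endothelial markers, 0 passed in model against control (1 higher at an unadjusted p under 0.05, 0 by voom, 1 lower with median-ratio size factors), and their summed FPKM was 94.4 to 109 in control and 103 to 129.7 in model, with Clec4g the most abundant. Of 6 tested red blood cell markers, 0 were higher and 1 lower (0 and 2 unadjusted, 0 and 1 by voom, 0 and 3 with median-ratio size factors). Their summed FPKM was 1087, 1149.7 and 981 in control and 782, 820.4 and 577 in model, with Hbb-bs the most abundant. Under either drug against model, 0 markers of Kupffer cells and macrophages, of sinusoidal endothelium and of lymphocytes and neutrophils passed (0 to 1 per list at an unadjusted p under 0.05, 0 by voom). Of all genes, 2.62% were higher and 11.4% lower under silibinin, and 2.50% and 10.4% under phloridzin. The stellate cell list had 0 under silibinin (1 lower at an unadjusted p under 0.05 and by voom). Under phloridzin it had 1 lower (1 higher and 2 lower unadjusted, 0 and 2 by voom, 1 and 1 with median-ratio size factors). The red blood cell list had 1 higher under silibinin and 0 under phloridzin (1 and 1 at an unadjusted p under 0.05, 0 by voom). The 1 higher gene was Alas2 (log2 fold change 0.54, adjusted p 0.0203), while the list's median was -0.82 under silibinin and -0.49 under phloridzin, with summed FPKM of 535, 547 and 265 and of 309, 624 and 896. Against control, phloridzin had 8 of the 14 Kupffer cell and macrophage markers higher (10 at an unadjusted p under 0.05, 3 by voom, 2 with median-ratio size factors), with a median of 1.04, and 2 of the 10 stellate cell markers (5, 3 and 2), where 7.51% of all genes were higher and the median was 0.18. Silibinin had 2 of the 14 (6, 2 and 2), with a median of 0.59, and 4 of the 10 (6, 4 and 3), where 4.59% of all genes were higher and the median was 0.16. By the same 3 alternatives, 22.5%, 6.30% and 4.10% of all genes were higher under phloridzin than in control. Under silibinin they were 19.2%, 4.84% and 3.06%. No list had a gene at 0 in all livers. The part of these cells in the levels of Hamp, Hamp2 and Tfrc in the model livers, and of Hamp2 in the drug groups, was not tested.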

How the data were processed

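The authors sequenced total RNA of 12 livers, aligned reads with HISAT2 2.1.0, assembled them with StringTie 1.3.3b and deposited 1 value per transcript, taken here as FPKM made by the authors. The unit and the library sizes were inferred from the spacing of the values, since the labels name no unit. FPKM was summed per gene symbol, and genes with a mean of at least 0.5 were tested on log2(FPKM + 1) with limma 3.58.1 (R 4.3.3, trend in the variance, two-sided, Benjamini-Hochberg). The fit was tested on simulated data, and the outcome of that test is not given here. Permutation tests used Python 3.11.15 and numpy 2.4.6. The members and the 15 lists were chosen with earlier results of these data known. Named are all members, list genes called DE in the first 3 comparisons (at most 5 per list and comparison, mean at least 1 FPKM), transcripts with at least 10% of a group's sum and the 3 genes most like each of 4 members. Alas2, Bmp6, Ttr, Serpina1a and Saa1 were named after their values were seen. Alternatives were pseudocount 0.1, no filter, a mean of at least 5, coding transcripts, the most abundant transcript, median-ratio size factors, the 2 compared groups alone, a replicate block, no fold threshold, voom on recovered fragments and leaving out each liver. Silibinin was given at 27.3 mg per kg.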

Additional observations from a re-analysis of the deposited data

Results flagged for a closer look

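NONMMUT150891.1, a noncoding transcript on the strand opposite to Hamp, was not part of the comparisons and stood higher in the model livers than in the control livers. Its mean was 5.00 FPKM in model, with single livers between 4.88 and 5.08, against 1.5 to 3.17 in control, with a mean of 2.23. The transcript was picked because every model liver lay above every control liver, so that separation follows from the choice. Model and control livers did not overlap, in either direction, for 52.0% of all genes tested. The difference was not tested.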

How the results depend on the processing

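The members called DE were 3 in model against control, 1 in silibinin against model, 0 in phloridzin against model, 1 in each drug against control and 0 between the drugs. In model against control the count became 2 with coding transcripts and with the most abundant transcript (Hamp and Hamp2). It was also 2 with median-ratio size factors (Hamp2 and Trf). In phloridzin against control it became 0 with no filter, a mean of at least 5 FPKM, coding transcripts, the most abundant transcript, median-ratio size factors, the 2 compared groups alone and voom. In phloridzin against model it became 1 with a mean of at least 5 FPKM and with voom, and in silibinin against control 0 with the most abundant transcript. Leaving out each liver gave 2 to 4 in model against control, 1 in silibinin against model, and 0 to 1 in phloridzin against model and in either drug against control. The cause was not tested. Hamp in silibinin against model and Hamp2 in model against control kept their direction and an adjusted p under 0.05 in all 22 alternatives. Among these, dropping the fold threshold cannot change a direction or an adjusted p. The choices of transcripts leave the levels of Hamp the same, since it has a single transcript. Among values that passed in some setting, the sign changed for Ciapin1 in model against control, at -0.12 with coding transcripts and -0.13 with the most abundant transcript, and for Slc11a1, at 0.00426 and 0.0248 in silibinin against model and -0.41 and -0.44 in phloridzin against control. Of the 10 members, the sign of a value that did not pass changed in at least 1 alternative for 5 in model against control (Slc40a1, Fth1, Ftl1, Mt1 and Mt2), 3 in silibinin against model (Hamp2, Tfr2 and Mt2), 2 in phloridzin against model (Slc40a1 and Ftl1), 4 in silibinin against control, 6 in phloridzin against control and 7 between the drugs. With a replicate block the counts of members were the same, all genes called in model against control were 1363 instead of 1382, and deviations of livers with the same number correlated between -0.09 and 0.10, so the numbers show no pairing. Among all genes called in model against control, 89.7% were higher, and 51.0% with median-ratio size factors. With 3 livers a group, exact tests of ratios cannot go below 0.1.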

Other observations

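Gm22133, a microRNA gene inside Ftl1 on the same strand, stood at 1482 FPKM in control 3 and at 2356 in model 2 and at or below 0.219 in the other 10 livers. NONMMUT150892.1, on the strand opposite to Hamp, stood at 182 FPKM in control 3 and at or below 3.08 in the other 11 livers. Hamp itself was 729 FPKM in control 3, between those of the other control livers.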
